A study of Mus musculus with 24 samples.

Results

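The comparison described here asks how the response to bone morphogenetic protein 4 (BMP4) differed between 2 stages of muscle culture in cells that lack MuSK. For every gene the BMP4 response of MuSK-null myotubes (treated minus untreated) was set against that of MuSK-null myoblasts, and the difference of the 2 responses is called the stage difference. Its values come from 12 of the 24 arrays of the series, chosen by their titles, with 3 arrays in each of 4 groups, while the error behind every SE and p was estimated from all 24. The groups were untreated MuSK-/- myoblasts, MuSK-/- myoblasts given 25 ng/ml BMP4 for 8 h, untreated MuSK-/- myotubes, and MuSK-/- myotubes given the same dose for the same time. The other 12 arrays hold the same 4 groups of wild-type cells. A second set of genes was defined within the same arrays, those called in both responses but in opposite directions.

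Both lines are mouse muscle cells of the H-2Kb-tsA58 type, which carry a temperature-sensitive large T antigen, so that cells divide at the low temperature and differentiate at the high one. Each genotype is represented by 1 line. Myoblasts grew at 33 °C in fetal bovine serum with chicken embryo extract and interferon-γ, and myotubes formed over 3 days at 37 °C in horse serum. Before BMP4 the treated myoblasts, but not the treated myotubes, went 4 h without serum; for untreated myoblasts the labels are silent. In the stage difference, differentiation, temperature, medium and serum deprivation therefore cannot be told apart. The labels number the 3 arrays of a group as biological replicates and do not say whether these were separate cultures, so that p-values reflect how far these 3 samples scatter, part of which may be technical.

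BMP4 binds type I and type II receptor kinases that phosphorylate Smad1, Smad5 and Smad8, which enter the nucleus with Smad4 and switch on target genes. In muscle cells, BMP signalling is known for holding back differentiation through the Id proteins, which bind partners of MyoD, and for turning myogenic cells towards an osteoblast-like programme. MuSK is the receptor tyrosine kinase that, together with Lrp4 and agrin, clusters acetylcholine receptors at the neuromuscular synapse.

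Values are the deposited log2 signals, where 1 unit is a 2-fold difference. Calls are genes with a limma p below 0.05 after Benjamini-Hochberg adjustment over the 19938 genes tested. The targeted gene, Musk, read from 10.69 to 11.32 over the 12 MuSK-null arrays and from 11.50 to 12.84 over the 12 wild-type arrays. The null arrays were lower without overlap but far from the dimmest rows; the deleted exons are not named in the sources used here, so the row checks the labels in part. Musk had a stage difference of -0.09 (SE 0.10, adjusted p = 0.771). Among 14 muscle markers the summed linear signal ran from 24556 to 27073 in untreated null myoblasts and from 127269 to 130067 in untreated null myotubes. Myh3, the embryonic myosin, averaged 9.00 ± 0.16 (SD, n = 3) in untreated myoblasts and 13.89 ± 0.03 (SD, n = 3) in untreated myotubes. The 4 marker lists for endothelial cells, leukocytes, Schwann cells or neurons, and adipocytes summed to between 510 and 1325 on every MuSK-null array, and 13 fibroblast markers to between 11910 and 16446. In the myoblast groups, replicate 2 of both null arms deviated from its group together with 1 array of each wild-type myoblast arm, with correlations over genes of 0.421 to 0.544. Leaving these 4 arrays out gave 1222 called stage differences in place of 1228, and 120 genes with opposite responses in place of 104.

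A stage difference was called for 1228 of 19938 genes (6.16%), of which 645 (3.24%) had the higher response in myotubes and 583 (2.92%) the lower one. The responses behind it were called for 1678 genes (8.42%) in MuSK-null myoblasts and 2245 genes (11.3%) in MuSK-null myotubes. Of all genes, 3.89% rose and 4.52% fell in myoblasts, and 5.36% rose and 5.9% fell in myotubes. Counts of list members further below are to be read against these shares. The stage difference is built from both responses, so the split that follows describes the called genes and tests nothing further. Of the 645 genes, 260 rose in myotubes without a called change in myoblasts, 199 fell in myoblasts without a called change in myotubes, and 63 fell in myoblasts and rose in myotubes. Another 49 rose in both stages and more in myotubes, 54 fell in both and more in myoblasts, and 20 had no called response in either stage. Of the 583 genes, 294 fell in myotubes alone by the calls, 128 rose in myoblasts alone, and 41 rose in myoblasts and fell in myotubes. A further 42 rose in both and more in myoblasts, 23 fell in both and more in myotubes, and 55 had no called response in either stage. With the error estimated from the 12 null arrays alone, 985 stage differences were called, 937 of them among the 1228. The median stage difference over all genes was -0.023. With each array centred on its median the count was 1160 and the share with the higher response in myotubes was 64.4%, against 52.5% on the deposited values.

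**Figure D1:**
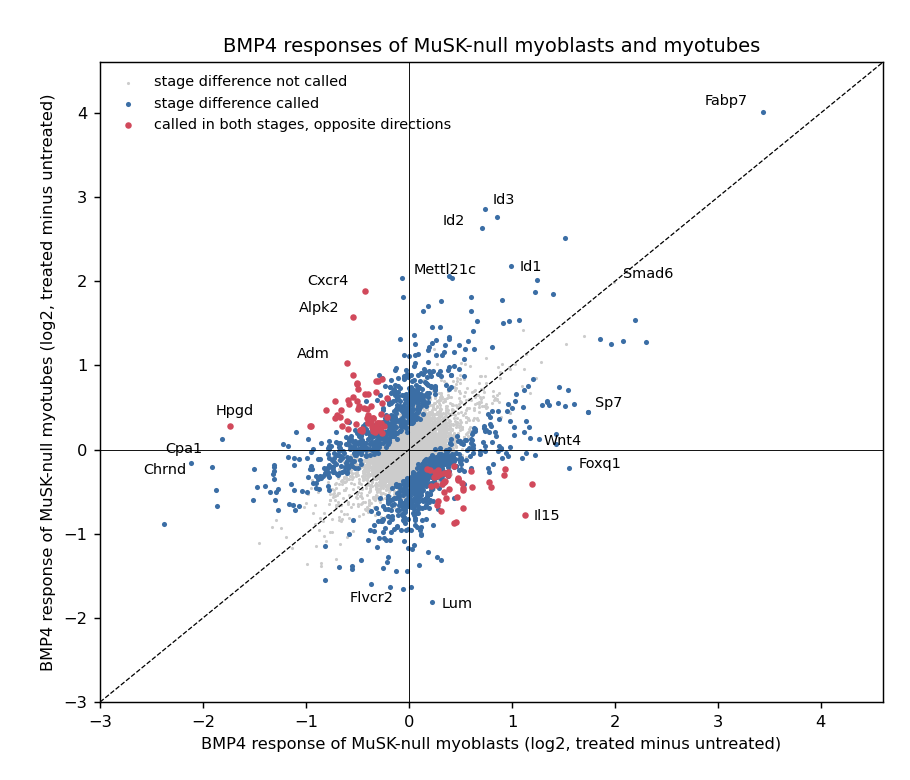
BMP4 response of every gene in MuSK-null myoblasts (horizontal axis, log2 treated minus untreated) against that in MuSK-null myotubes (vertical axis, log2), with the dashed line marking equal responses. Blue points are called stage differences, red points the 104 genes called in opposite directions, and Cxcr4, at -0.42 and 1.89, lies farthest above the line.

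Most of the classical BMP targets rose in both stages, by different amounts. The list of BMP and Smad targets has 30 members on the array, of which 23 rose in null myoblasts, 24 rose in null myotubes and 0 fell in either stage. Over all genes 3.89% rose in null myoblasts and 5.36% in null myotubes. In the stage difference 10 of the 30 were higher in myotubes and 6 lower, against 3.24% and 2.92% of all genes. The list median was 0.034. Id2, Id3 and Id1 had the largest higher responses in myotubes of the 30, and Sp7 the largest lower one. They encode inhibitors that pair with basic helix-loop-helix factors and keep them from binding DNA.

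The signal of Id3 (probe set 10509163) was 11.02, 10.96 and 10.97 in untreated myoblasts, 11.65, 11.83 and 11.69 in treated myoblasts, 8.61, 8.62 and 8.48 in untreated myotubes and 11.39, 11.32 and 11.57 in treated myotubes. Treated arrays of both stages lay between 11.32 and 11.83, while untreated myotubes lay below untreated myoblasts by more than 2 units, and treated and untreated arrays did not overlap in either stage. Id3 thus rose 1.67-fold in myoblasts and 7.24-fold in myotubes, a stage difference of 2.12 (SE 0.13, adjusted p = 2.79e-10). Id2 (probe set 10399691) read 11.75, 11.71 and 11.64 in untreated myoblasts, 12.47, 12.30 and 12.45 in treated myoblasts, 9.17, 9.44 and 9.07 in untreated myotubes and 11.78, 11.90 and 11.89 in treated myotubes. The low arrays were again the untreated myotubes, and Id2 rose 1.64-fold in myoblasts and 6.18-fold in myotubes, a stage difference of 1.92 (SE 0.11, adjusted p = 2.13e-10). For Id1 (probe set 10477169) the arrays read 10.59, 10.71 and 10.56 in untreated myoblasts, 11.59, 11.59 and 11.66 in treated myoblasts, 9.19, 9.18 and 8.95 in untreated myotubes and 11.32, 11.16 and 11.40 in treated myotubes. Its rise was 1.99-fold in myoblasts and 4.55-fold in myotubes, a stage difference of 1.20 (SE 0.10, adjusted p = 5.3e-08), and no arm overlapped another within a stage.

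Id4, the remaining member of the family, went the other way. Its signal was 6.97, 7.12 and 7.15 in untreated myoblasts, 7.55, 7.85 and 7.64 in treated myoblasts, 7.05, 7.06 and 7.03 in untreated myotubes and 7.12, 7.36 and 6.90 in treated myotubes, so that treated myoblasts stood above all other arrays and the myotube arms overlapped. The stage difference was -0.52 (SE 0.14, adjusted p = 0.0275). This call was lost when replicate 2 of treated myoblasts, replicate 1 of untreated myoblasts, replicate 1 or 3 of treated myotubes, or replicate 1 or 2 of untreated myotubes was left out, with adjusted p from 0.053 to 0.0922. It was also lost under quantile normalization (adjusted p = 0.0517), median centring (0.0574), with the 12 null arrays alone (0.0638) and without the 4 arrays that deviate together (0.0624).

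The promoters of Id2, Id3 and Id4 are shown because these members of 1 family span the largest higher responses in myotubes and a lower one. They are the 250 bases before the transcription start in RefSeq (GRCm38.p6), at chr12:25096093-25096342 on the minus strand for Id2, chr4:136143572-136143821 on the plus strand for Id3 and chr13:48260866-48261115 on the plus strand for Id4. Capitals mark GGCGCC, a GC-rich motif that BMP Smads are known to bind.
Id2: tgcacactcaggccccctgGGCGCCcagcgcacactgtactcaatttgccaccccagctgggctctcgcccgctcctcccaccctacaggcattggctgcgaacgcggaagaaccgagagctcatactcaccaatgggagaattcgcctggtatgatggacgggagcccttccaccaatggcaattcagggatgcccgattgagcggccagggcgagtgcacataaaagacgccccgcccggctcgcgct
Id3: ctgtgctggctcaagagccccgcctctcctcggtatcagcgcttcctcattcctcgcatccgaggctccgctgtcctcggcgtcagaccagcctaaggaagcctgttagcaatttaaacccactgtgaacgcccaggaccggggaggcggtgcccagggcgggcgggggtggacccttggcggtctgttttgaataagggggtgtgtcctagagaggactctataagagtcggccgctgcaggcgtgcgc
Id4: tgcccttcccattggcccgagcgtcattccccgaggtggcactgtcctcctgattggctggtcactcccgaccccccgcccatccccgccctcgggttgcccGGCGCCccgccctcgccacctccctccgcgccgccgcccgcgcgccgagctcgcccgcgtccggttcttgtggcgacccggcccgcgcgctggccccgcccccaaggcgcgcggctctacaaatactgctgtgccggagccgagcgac
One match stands at -231 from the start in Id2 and one at -148 in Id4, and the Id3 window holds no GGCGCC. Over windows of 300 bases (250 before and 50 after the start), GGCGCC, which reads the same on both strands, was present in 16.6% of 15614 promoters, in 21.5% of 493 for genes with a higher response in myotubes and in 20.1% of 422 for genes with a lower one. The motif GTCTAGAC, also a palindrome and a Smad box pair, was in 0.231% of all promoters, in 0.406% of the first set and in none of the second. A match is a description of letters and does not show binding. The promoter of Id1 is not shown.

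The inhibitory Smads and other targets differed among themselves. Smad6, which blocks BMP receptor signalling, read 9.88, 9.79 and 9.70 in untreated myoblasts, 11.90, 11.62 and 11.81 in treated myoblasts, 8.54, 8.58 and 8.43 in untreated myotubes and 10.62, 10.34 and 10.57 in treated myotubes. Both stages rose by 1.99 log2 units with no overlap between arms, and the stage difference was 0.01 (SE 0.11, adjusted p = 0.991). For Smad7, a second inhibitory Smad, the responses were 1.40 in myoblasts and 1.85 in myotubes, a stage difference of 0.45 (SE 0.12, adjusted p = 0.0298). That call was lost without replicate 1 or 3 of treated myoblasts, replicate 2 of untreated myoblasts, replicate 3 of treated myotubes, or replicate 1 or 3 of untreated myotubes (adjusted p from 0.0651 to 0.0986). It was also lost with the replicate number as a block (adjusted p = 0.0687), with the 12 null arrays alone (adjusted p = 0.0912) and without the 4 arrays that deviate together (adjusted p = 0.0755). Atoh8, a helix-loop-helix factor, rose by 0.90 in myoblasts and 1.78 in myotubes, a stage difference of 0.88 (SE 0.12, adjusted p = 4.37e-05). Fabp7, a fatty acid binding protein, had the largest rise of both stages among the genes named here, 10.8-fold in myoblasts and 16.1-fold in myotubes. Its arrays read 9.24, 9.25 and 9.13 in untreated myoblasts, 12.76, 12.51 and 12.65 in treated myoblasts, a mean of 6.96 ± 0.11 (SD, n = 3) in untreated myotubes and 10.99, 10.99 and 10.94 in treated myotubes. Every treated array lay above every untreated array of both stages, and the stage difference was 0.58 (SE 0.12, adjusted p = 0.00225).

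Targets with the larger rise in myoblasts were Sp7, Bambi, Hey1, Dlx1 and Dlx2 beside Id4. Dlx2, a homeobox gene, was at -0.55 (SE 0.15, adjusted p = 0.0318), a call lost without replicate 1 or 3 of treated myoblasts, replicate 1 or 2 of untreated myoblasts, replicate 2 of treated myotubes, or replicate 1 or 2 of untreated myotubes (adjusted p from 0.0507 to 0.1), and also under median centring (0.0552) and with the 12 null arrays alone (0.0815). Sp7 (probe set 10433003), the osteoblast factor osterix, read 6.29, 6.55 and 6.59 in untreated myoblasts, 8.33, 7.97 and 8.33 in treated myoblasts, 6.01, 6.50 and 6.57 in untreated myotubes and 6.76, 6.99 and 6.66 in treated myotubes. Treated myoblasts stood above every other array, and the myotube arms lay close together without overlap. Sp7 rose 3.33-fold in myoblasts and 1.36-fold in myotubes, a stage difference of -1.29 (SE 0.19, adjusted p = 9.11e-05). Bambi, a decoy receptor that dampens BMP and TGF-β signals, read 7.91, 7.96 and 7.86 in untreated myoblasts, 9.43, 9.32 and 9.53 in treated myoblasts, 7.67, 7.61 and 7.70 in untreated myotubes and 8.16, 8.15 and 8.24 in treated myotubes. It rose by 1.52 in myoblasts and 0.52 in myotubes without overlap of the arms, a called stage difference (SE 0.10, adjusted p = 7.45e-07). Hey1, a repressor shared with the Notch pathway, rose by 1.96 and 1.25, a stage difference of -0.71 (SE 0.18, adjusted p = 0.0144); without replicate 1 of treated myoblasts it was -0.62 with an adjusted p of 0.052. Msx2, a homeobox target, had a stage difference of -0.53 (SE 0.17, adjusted p = 0.0831), which became -0.72 (adjusted p = 0.00183) when replicate 2 of treated myoblasts was left out and -0.72 (adjusted p = 0.00826) without the 4 arrays that deviate together.

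**Figure D2:**
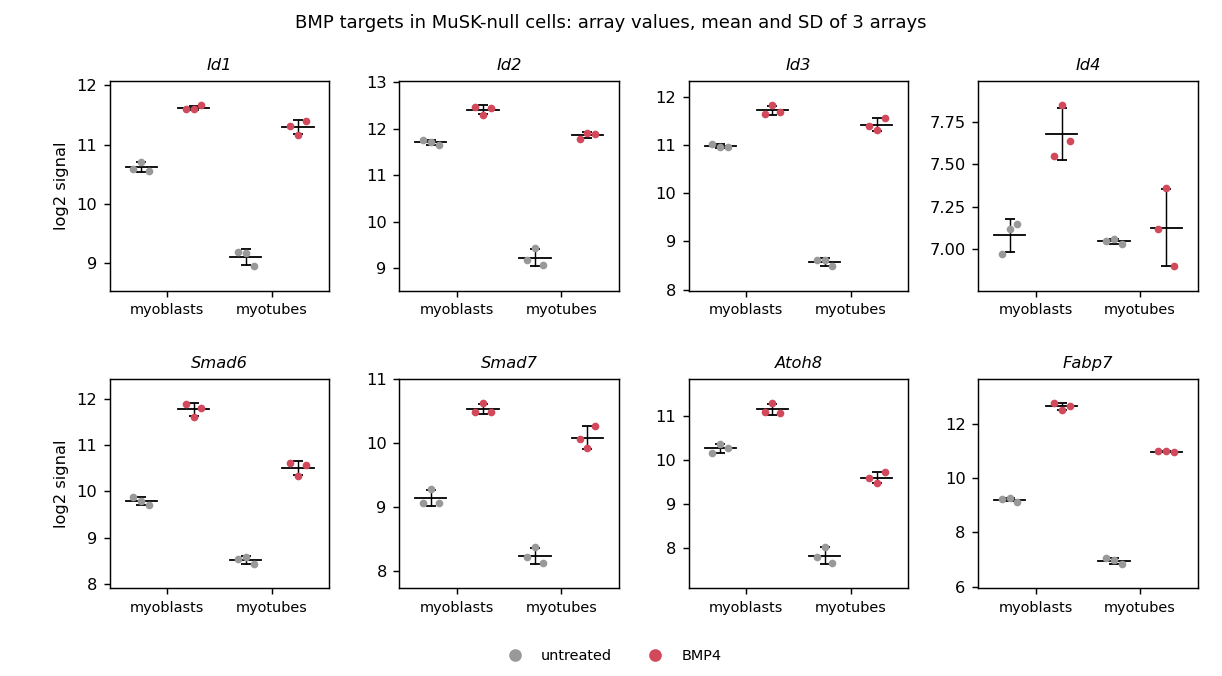
Log2 signal of 8 BMP targets on each MuSK-null array (points), with the mean (line) and SD (bar) of 3 arrays, untreated in grey and BMP4 in red. Treated Id1, Id2 and Id3 reach similar levels in both stages from a lower untreated level in myotubes, while Smad6 rises by 1.99 in each stage.

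Among 36 BMP ligands, receptors and antagonists, 4 (11.1%) had a higher response in myotubes and 3 (8.33%) a lower one, with a median of -0.032. The shares over all genes were 3.24% and 2.92%. Hjv, the BMP co-receptor hemojuvelin, read 10.38, 10.32 and 10.65 in untreated myoblasts, 9.28, 9.16 and 9.38 in treated myoblasts, 13.39, 13.42 and 13.43 in untreated myotubes and 13.32, 13.29 and 13.35 in treated myotubes. It fell in treated myoblasts with no overlap and moved little in myotubes, where its signal was high in all 6 arrays, and the stage difference was 1.09 (SE 0.10, adjusted p = 1.08e-07). Bmper, a secreted BMP-binding protein, changed by -0.05 in myoblasts and rose by 0.64 in myotubes, a stage difference of 0.69 (SE 0.10, adjusted p = 7.49e-05). The ligand gene Bmp4 fell in both stages, by 0.42 in myoblasts and 0.46 in myotubes, and its stage difference was -0.04 (SE 0.16, adjusted p = 0.951). Of 24 genes of the TGF-β, activin and myostatin branch, 1 (4.17%) was higher, which is near the share over all genes, and 6 (25.0%) were lower. The higher one was Inha, the inhibin alpha subunit, which rose by 0.31 in myoblasts and 1.76 in myotubes. Its arrays read 8.02, 8.11 and 8.06 in untreated myoblasts, 8.33, 8.37 and 8.41 in treated myoblasts, 9.90, 9.93 and 9.96 in untreated myotubes and 11.75, 11.61 and 11.72 in treated myotubes, without overlap of arms in either stage, and the stage difference was 1.45 (SE 0.10, adjusted p = 1.15e-09). Tgfbi, a matrix protein induced by TGF-β, rose by 0.61 in myoblasts and changed by -0.22 in myotubes, a stage difference of -0.83 (SE 0.13, adjusted p = 0.000124).

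Of 37 myogenic regulators and fusion genes, 13 fell and 3 rose in null myoblasts, against a background of 4.52% falling and 3.89% rising. In null myotubes 7 fell and 5 rose, against 5.9% and 5.36%. In the stage difference 10 were higher and 1 was lower, against 3.24% and 2.92% of all genes, with a median of 0.055. In bulk cultures such as these, fewer cells of a type and less RNA per cell cannot be told apart. Beside this, the summed signal of the 14 muscle markers ran from 19608 to 21589 in treated myoblasts against 24556 to 27073 in untreated ones, and from 127349 to 129632 in treated myotubes against 127269 to 130067. Its part in the results for single muscle genes was not tested.

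Myod1, the myogenic determination factor, read 11.54, 11.43 and 11.53 in untreated myoblasts, 10.93, 10.86 and 10.94 in treated myoblasts, 12.53, 12.60 and 12.54 in untreated myotubes and 12.82, 12.72 and 12.86 in treated myotubes. Treated myoblasts were low and treated myotubes high, with no overlap of arms in either stage. Myod1 fell by 0.59 in myoblasts and rose by 0.25 in myotubes, a stage difference of 0.84 (SE 0.07, adjusted p = 7.38e-08). Myogenin (Myog), the factor of terminal differentiation, fell by 0.67 in myoblasts and had a myotube response of -0.00, a stage difference of 0.67 (SE 0.09, adjusted p = 3.93e-05). Myf5, a sister factor, had a myoblast response of 0.03 and rose by 0.71 in myotubes, a stage difference of 0.68 (SE 0.11, adjusted p = 0.000353). These 3 regulators reached the same sign of the stage difference from different responses. Cdh15, the cadherin of myoblast contacts, fell by 1.35 and 0.51, a stage difference of 0.85 (SE 0.09, adjusted p = 1.39e-06). Adam12, a metalloprotease of fusing cells, was the list's lower member and rose by 1.11 in myoblasts and 0.20 in myotubes, a stage difference of -0.91 (SE 0.09, adjusted p = 1.44e-07).

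Of the synapse genes, 2 subunits of the acetylcholine receptor, Chrnd and Chrng, fell in both stages and more in myoblasts. Of 29 neuromuscular junction genes, 8 fell and 0 rose in null myoblasts, against 4.52% and 3.89% of all genes. In null myotubes 6 fell and 3 rose, against 5.9% and 5.36%. The stage difference was higher for 8 and lower for 2, against 3.24% and 2.92%, with a median of 0.096. Chrnd (probe set 10348150), the delta subunit of the acetylcholine receptor, read 10.62, 10.55 and 10.72 in untreated myoblasts, 8.71, 8.71 and 8.72 in treated myoblasts, 12.04, 12.03 and 11.98 in untreated myotubes and 11.78, 11.80 and 11.86 in treated myotubes. The treated myoblast arrays were the lowest of the 12 by more than 1.5 units, and the arms were apart in both stages. Chrnd fell 3.77-fold in myoblasts and 1.15-fold in myotubes, a stage difference of 1.71 (SE 0.08, adjusted p = 2.52e-12). Chrng (probe set 10348166), the fetal gamma subunit, read 10.78, 10.75 and 10.92 in untreated myoblasts, 9.44, 9.58 and 9.51 in treated myoblasts, 12.42, 12.44 and 12.33 in untreated myotubes and 12.17, 12.03 and 12.23 in treated myotubes. It fell 2.48-fold in myoblasts and 1.19-fold in myotubes, again without overlap, a stage difference of 1.05 (SE 0.09, adjusted p = 2.2e-08). Lrp4, the agrin receptor that partners MuSK, fell by 0.88 in myoblasts and had a myotube response of -0.11, a stage difference of 0.78 (SE 0.08, adjusted p = 5.68e-07). Sntb1, a syntrophin of the dystrophin complex, fell by 0.86 in myoblasts and had a myotube response of 0.08, a stage difference of 0.93 (SE 0.08, adjusted p = 8.81e-08).

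The Chrng promoter is shown because its gene fell mainly in myoblasts, alongside Myod1 and Myog, whose proteins bind E-boxes (CANNTG, a palindrome marked in capitals). It is the stretch chr1:87205561-87205810 on the plus strand of GRCm38.p6 from RefSeq.
Chrng: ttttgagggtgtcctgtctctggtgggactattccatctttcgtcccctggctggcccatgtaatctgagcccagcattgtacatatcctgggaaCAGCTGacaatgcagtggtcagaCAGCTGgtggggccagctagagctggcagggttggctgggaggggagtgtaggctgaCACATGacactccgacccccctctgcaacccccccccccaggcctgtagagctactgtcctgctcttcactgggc
The E-boxes begin at -155, -132 and -75 from the start. CANNTG was present in 68.0% of all 15614 promoter windows of 300 bases, in 68.2% for genes with a higher response in myotubes and in 68.7% for those with a lower one, so its presence did not separate the sets. The promoters of Chrnd and Myod1 are not shown.

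Mir206, the gene of a microRNA found in skeletal muscle, had the largest fall in myoblasts among the microRNA genes called. Of 302 rows that name a microRNA gene, 1 was higher in the stage difference and 3 were lower. Both shares are below those over all genes, 3.24% and 2.92%. The mature strands from RefSeq, at chr1:20679055-20679076 for the 3p strand and chr1:20679017-20679039 for the 5p strand (plus strand, GRCm38.p6), are shown with the seed, bases 2 to 8, in capitals.
miR-206-3p: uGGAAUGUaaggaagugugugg
miR-206-5p: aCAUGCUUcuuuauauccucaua
The array row (probe set 10345028) covers the gene and does not separate its transcript from the mature strands. It read 7.85, 7.76 and 7.82 in untreated myoblasts, 6.20, 6.06 and 5.70 in treated myoblasts, 9.93, 9.89 and 9.54 in untreated myotubes and 9.98, 9.87 and 9.89 in treated myotubes. Treated myoblasts were the lowest arrays, the myotube arms overlapped, and the stage difference was 1.95 (SE 0.21, adjusted p = 9.84e-07). The 3 lower rows were Mir133a-1 at -0.65 (adjusted p = 0.0436), Mir30c-1 at -0.60 (adjusted p = 0.00628) and Mir302d at -0.34 (adjusted p = 0.0442). Mir302d had null group means between 3.70 and 4.03, near the low end of the signal range.

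Sarcomere genes had stage differences in both directions. Of 48, 16 fell and 2 rose in null myoblasts, against 4.52% and 3.89% of all genes. In null myotubes 7 fell and 5 rose, against 5.9% and 5.36%. The stage difference was higher for 11 and lower for 4, against 3.24% and 2.92%, with a median of 0.145. Cap2, an actin-binding protein of the sarcomere, fell by 1.12 and 0.19, a stage difference of 0.93 (SE 0.07, adjusted p = 9.63e-09). Myh2, a fast myosin heavy chain, read 6.07, 6.15 and 6.14 in untreated myoblasts, 6.05, 5.72 and 5.71 in treated myoblasts, 7.80, 7.54 and 7.60 in untreated myotubes and 8.55, 8.69 and 8.35 in treated myotubes. Its myotube arms were apart and treated myotubes highest, and the stage difference was 1.17 (SE 0.14, adjusted p = 4.64e-06). Myh4, another fast myosin, fell by 0.68 in myotubes with a myoblast response of 0.15, a stage difference of -0.83 (SE 0.13, adjusted p = 0.000141). Myoz1, a Z-disc protein of fast fibres, read 6.49, 6.62 and 6.85 in untreated myoblasts, 7.28, 7.10 and 7.14 in treated myoblasts, 9.52, 9.63 and 9.49 in untreated myotubes and 9.16, 8.96 and 9.08 in treated myotubes. It rose in myoblasts by 0.52 and fell in myotubes by 0.48, a called stage difference (SE 0.14, adjusted p = 5.83e-05). Of the 3 genes of fast fibres given here, 2 had lower and 1 had higher responses in myotubes. Other genes of fast fibres were not counted.

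Of 25 measured osteoblast and cartilage genes, 5 rose and 0 fell in null myoblasts, against 3.89% rising over all genes, and 20 were not called. In null myotubes 2 rose and 2 fell, against 5.36% and 5.9% of all genes. In the stage difference 5 had a lower and 0 a higher response in myotubes, against 2.92% and 3.24%, with a median of -0.132. Sox9 (probe set 10382328), the master factor of cartilage, read 10.86, 10.82 and 10.91 in untreated myoblasts, 11.89, 11.63 and 11.85 in treated myoblasts, 10.51, 10.56 and 10.48 in untreated myotubes and 10.18, 10.20 and 10.25 in treated myotubes. Treated myoblasts were the highest arrays and treated myotubes the lowest, and Sox9 rose by 0.93 in myoblasts and fell by 0.31 in myotubes, a stage difference of -1.23 (SE 0.09, adjusted p = 6.63e-09). Alpl, the alkaline phosphatase of bone, read 7.10, 7.07 and 7.18 in untreated myoblasts, 8.38, 8.03 and 8.24 in treated myoblasts, a mean of 7.11 ± 0.13 (SD, n = 3) in untreated myotubes and 7.07, 7.12 and 6.83 in treated myotubes. Treated myoblasts were above all other arrays, the myotube arms overlapped, and the stage difference was -1.20 (SE 0.15, adjusted p = 1e-05). Col10a1, the collagen of hypertrophic cartilage, rose by 1.02 in myoblasts with a myotube response of 0.17, a stage difference of -0.85 (SE 0.17, adjusted p = 0.00264).

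Single genes with a larger rise in myoblasts included Foxq1, Fgfr2, Wnt4, Stc2 and Adamts9. Foxq1 (probe set 10404402), a forkhead transcription factor, read 8.43, 8.40 and 8.39 in untreated myoblasts, 9.88, 9.90 and 10.11 in treated myoblasts, 7.46, 7.28 and 7.42 in untreated myotubes and 7.23, 6.97 and 7.31 in treated myotubes. Treated myoblasts stood apart and the myotube arms overlapped; Foxq1 rose 2.94-fold in myoblasts, its myotube response was -0.22, and the stage difference was -1.77 (SE 0.12, adjusted p = 9.98e-10). Fgfr2, an FGF receptor, rose by 1.74 and 0.45, a stage difference of -1.29 (SE 0.14, adjusted p = 1.56e-06). Wnt4, a ligand of the Wnt family, rose by 1.22 in myoblasts with a myotube response of -0.06, a stage difference of -1.28 (SE 0.11, adjusted p = 3.38e-08). Stc2, a secreted glycoprotein, rose by 1.42 in myoblasts with a myotube response of 0.07, a stage difference of -1.36 (SE 0.12, adjusted p = 8.48e-08). Adamts9, a matrix protease, rose by 1.43 with a myotube response of 0.18, a stage difference of -1.25 (SE 0.14, adjusted p = 2.75e-06). Over 52 genes of the Wnt pathway 7 were higher and 11 lower, against 3.24% and 2.92% of all genes, with a median of -0.086. The secreted inhibitors Sfrp4 and Sfrp2 were among the higher ones, at 1.17 and 0.95.

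Among 38 immediate early genes, which respond within minutes to growth factors and stress, 21 rose and 0 fell in null myotubes, while 7 rose and 4 fell in null myoblasts. Over all genes 5.36% rose and 5.9% fell in null myotubes, and 3.89% rose and 4.52% fell in null myoblasts. In the stage difference 9 were higher and 0 lower, against 3.24% and 2.92% of all genes, with a median of 0.173. Jun, a subunit of the AP-1 factor, read 11.19, 11.30 and 11.37 in untreated myoblasts, 11.02, 10.93 and 10.99 in treated myoblasts, 10.50, 10.53 and 10.36 in untreated myotubes and 11.29, 11.31 and 11.24 in treated myotubes. Treated myotubes reached the level of untreated myoblasts from a lower start, and Jun fell by 0.31 in myoblasts and rose by 0.82 in myotubes, a stage difference of 1.12 (SE 0.08, adjusted p = 6.81e-09). Dusp1, a phosphatase that turns off MAP kinases, had responses of 0.22 and 1.26, a stage difference of 1.04 (SE 0.12, adjusted p = 2.75e-06). Hbegf, a ligand of the EGF receptor, had responses of 0.19 and 1.21, a stage difference of 1.02 (SE 0.16, adjusted p = 0.000129). Serum deprivation preceded treatment in myoblasts alone, and its part in the responses of these serum-sensitive genes was not tested.

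The glycolysis and hypoxia list had the highest share of members with a higher response in myotubes after the muscle markers. Of 34, 17 rose and 1 fell in null myotubes, against 5.36% and 5.9% of all genes. In null myoblasts 5 rose and 4 fell, against 3.89% and 4.52%. In the stage difference 14 were higher and 2 lower, against 3.24% and 2.92%, with a median of 0.239. Slc2a3, a glucose transporter, read 7.64, 7.90 and 7.64 in untreated myoblasts, 7.85, 8.07 and 7.81 in treated myoblasts, 7.93, 7.96 and 7.68 in untreated myotubes and 9.00, 9.08 and 9.05 in treated myotubes. Treated myotubes were at least 0.9 units above every other array, the myoblast arms overlapped, and the stage difference was 1.00 (SE 0.14, adjusted p = 2.42e-05). Egln3, a prolyl hydroxylase that acts on hypoxia-inducible factors, fell by 0.32 in myoblasts and rose by 0.68 in myotubes, a stage difference of 1.00 (SE 0.11, adjusted p = 9e-07). Ankrd37, a hypoxia-inducible gene, had responses of 0.09 and 1.14, a stage difference of 1.05 (SE 0.12, adjusted p = 2.51e-06). Bnip3, a mitophagy receptor, had responses of -0.14 and 0.72, a stage difference of 0.86 (SE 0.09, adjusted p = 9.43e-07). The lower members were Pgam2, the muscle phosphoglycerate mutase, at -0.42 and Pfkfb4 at -0.50. Heat shock genes leaned the same way, with 6 of 25 higher, 0 lower and a median of 0.160, and Dnajb4, a co-chaperone, at 0.93 (SE 0.13, adjusted p = 5.72e-05).

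**Figure D3:**
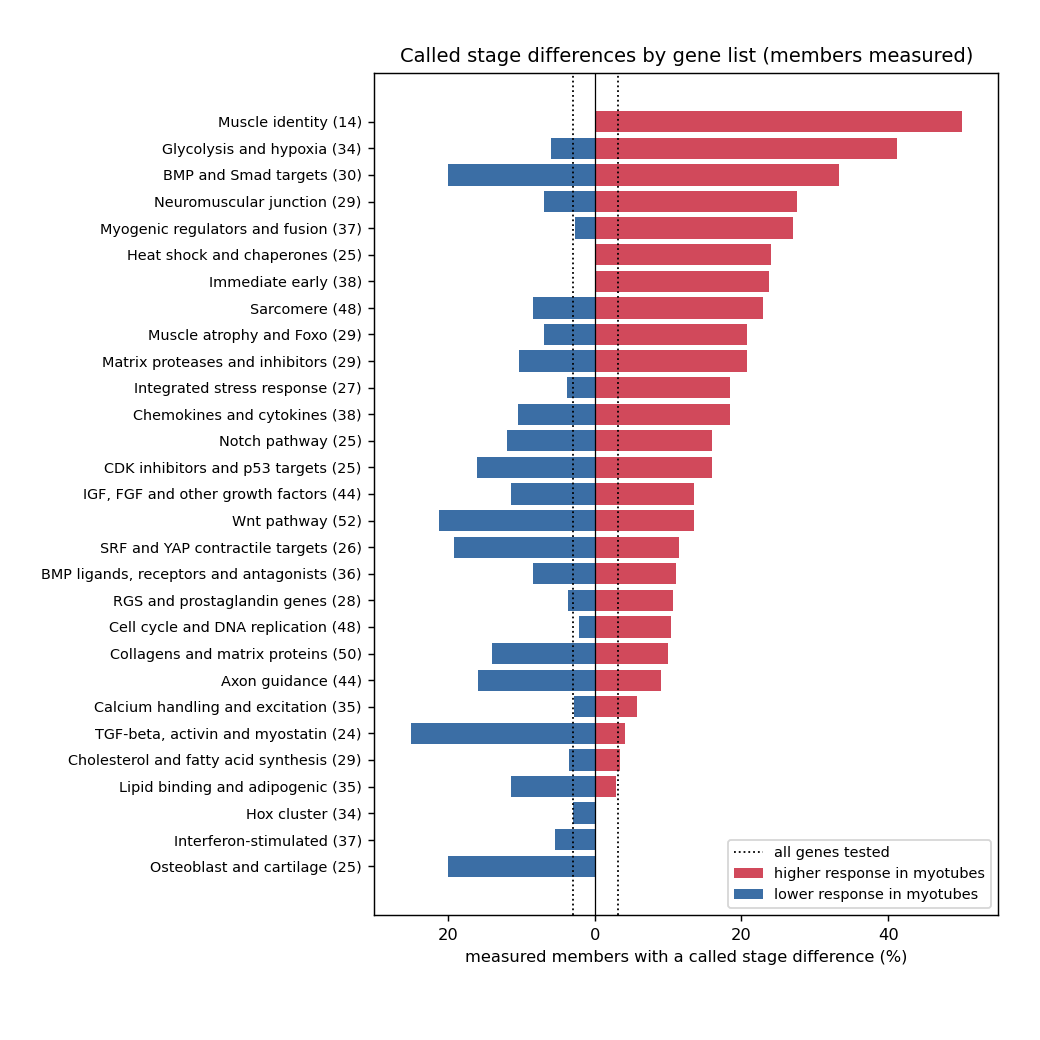
Share of each gene list's measured members (number in brackets) with a called stage difference, higher responses in myotubes to the right and lower ones to the left, in percent; dotted lines mark the shares over all genes, 3.24% and 2.92%. Glycolysis and hypoxia, BMP targets and the muscle lists lie far right, and the osteoblast and interferon lists have no member on the right.

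The largest stage difference of the 19938 genes, that of Cxcr4, came with a rise in myotubes. Cxcr4 (probe set 10357472), the receptor of the chemokine Cxcl12, read 8.32, 8.32 and 8.21 in untreated myoblasts, 7.72, 7.85 and 8.00 in treated myoblasts, 7.92, 7.94 and 8.04 in untreated myotubes and 9.76, 9.90 and 9.90 in treated myotubes. Treated myoblasts were low, treated myotubes were the highest by more than 1.4 units, and Cxcr4 had a stage difference of 2.31 (SE 0.11, adjusted p = 2.52e-12). Mettl21c (probe set 10354267), a lysine methyltransferase found in muscle, read 5.76, 5.79 and 5.59 in untreated myoblasts, 5.59, 5.78 and 5.57 in treated myoblasts, 6.13, 6.13 and 6.38 in untreated myotubes and 8.23, 8.24 and 8.28 in treated myotubes. The 3 treated myotube arrays stood about 2 units above the other 9, which lay between 5.57 and 6.38, and the stage difference was 2.10 (SE 0.12, adjusted p = 1.42e-10). Prr9 rose by 0.86 in myoblasts and 2.76 in myotubes, a stage difference of 1.91 (SE 0.14, adjusted p = 6.81e-09). Samd7 had responses of -0.05 and 1.82, a stage difference of 1.87 (SE 0.15, adjusted p = 1.11e-08).

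Large falls in myoblasts gave the same sign by the other route. Hpgd (probe set 10571840), the enzyme that inactivates prostaglandins, read 10.29, 10.23 and 10.23 in untreated myoblasts, 8.61, 8.41 and 8.49 in treated myoblasts, 9.08, 9.10 and 8.89 in untreated myotubes and 9.35, 9.21 and 9.35 in treated myotubes. Treated myoblasts were the lowest arrays and treated myotubes lay above untreated ones, and Hpgd fell by 1.74 in myoblasts and rose by 0.28 in myotubes, a stage difference of 2.02 (SE 0.11, adjusted p = 1.42e-10). Cpa1, a carboxypeptidase, fell by 2.12 with a myotube response of -0.17, a stage difference of 1.95 (SE 0.18, adjusted p = 9.89e-08). Igfbp5, a binding protein of insulin-like growth factors, fell by 1.51 with a myotube response of -0.23, a stage difference of 1.27 (SE 0.11, adjusted p = 8.19e-08). Fbxo32, the ubiquitin ligase atrogin-1, fell by 0.95 and rose by 0.28, a stage difference of 1.23 (SE 0.11, adjusted p = 1.23e-07).

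Of the 583 lower genes, 294 fell in myotubes without a called change in myoblasts. Flvcr2 (probe set 10397364), a membrane transporter, read 6.52, 6.55 and 6.55 in untreated myoblasts, 6.63, 6.64 and 6.41 in treated myoblasts, 8.80, 8.79 and 8.65 in untreated myotubes and a mean of 7.11 ± 0.10 (SD, n = 3) in treated myotubes. Untreated myotubes were the high arrays, treated myotubes came down towards the myoblast level, and Flvcr2 fell 3.11-fold in myotubes with a myoblast response of 0.02, a stage difference of -1.66 (SE 0.13, adjusted p = 9.63e-09). Frmd4b, a scaffold protein, fell by 1.22 in myotubes with a myoblast response of 0.19, a stage difference of -1.40 (SE 0.10, adjusted p = 2.86e-09). F3, tissue factor, fell by 1.28 with a myoblast response of 0.27, a stage difference of -1.55 (SE 0.12, adjusted p = 1.29e-08). Ddit4l, an inhibitor of mTOR signalling, fell by 1.63 with a myoblast response of -0.18, a stage difference of -1.45 (SE 0.10, adjusted p = 3.08e-09). Lum, the matrix proteoglycan lumican, read 4.32, 4.47 and 4.29 in untreated myoblasts, 4.17, 4.87 and 4.72 in treated myoblasts, 8.23, 8.30 and 8.17 in untreated myotubes and 6.77, 6.10 and 6.40 in treated myotubes. Its myoblast arrays were near the low end of the signal range, which leaves little room for a fall, and the stage difference was -2.04 (SE 0.23, adjusted p = 2.42e-06). Lum is 1 of 13 fibroblast markers, whose summed signal ran from 15067 to 16446 in untreated and from 12597 to 13095 in treated myotubes; 1 of the 13, Lum, had a lower stage difference and 1, Dcn, a higher one. Dcn, the proteoglycan decorin, was at 0.45 (SE 0.12, adjusted p = 0.021), and the call was lost without replicate 2 of treated myoblasts, replicate 1 or 3 of untreated myoblasts or replicate 3 of untreated myotubes (adjusted p from 0.0503 to 0.0692). The part of these markers in the Lum result was not tested.

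The rule for opposite responses was met by 104 genes (0.522%), 63 up in myotubes and down in myoblasts (0.316%) and 41 the reverse (0.206%). The stage difference of such genes follows from the rule and is given as a description. With the arrays centred on their medians the split was 70.5% against 60.6% in the first direction. The responses were modest: the smaller of a gene's 2 responses ran from 0.179 to 0.772 with a median of 0.325. The 63 genes had a median response of -0.408 in myoblasts and 0.39 in myotubes, and the 41 genes of 0.379 and -0.389. In all 104 genes treated and untreated arrays did not overlap in either stage. That largely follows from the calls which the rule requires, and the share over all genes was not counted. The untreated level was higher in myotubes than in myoblasts for 32 of the 63 and for 31 of the 41. The same share over all genes was not counted, so these counts do not show a trait of either set. At the edge of the rule, Tmem64 had a myotube adjusted p of 0.0481 and Abcc4 one of 0.0493, while Ddhd1 at 0.0505 in myotubes and Gldc at 0.0505 in myoblasts missed it. At least 1.5-fold in both stages was reached by 3 genes, Il15, Adm and Spry2.

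Il15 (probe set 10579958), a cytokine made by muscle, read 6.69, 6.51 and 6.65 in untreated myoblasts, 7.64, 7.74 and 7.83 in treated myoblasts, 9.69, 9.61 and 9.53 in untreated myotubes and 8.83, 8.88 and 8.80 in treated myotubes. The 4 groups did not overlap at all, and the treated levels of the stages lay closer together than the untreated ones. The rise in myoblasts was 2.18-fold and the fall in myotubes 1.71-fold. Adm (probe set 10556297), the vasodilator peptide adrenomedullin, read 7.65, 7.96 and 7.83 in untreated myoblasts, 7.28, 7.41 and 6.95 in treated myoblasts, 7.93, 8.17 and 7.94 in untreated myotubes and 9.10, 8.94 and 9.08 in treated myotubes. It fell 1.51-fold in myoblasts and rose 2.04-fold in myotubes from similar untreated levels, which overlapped between the stages. Spry2 (probe set 10422227), a feedback inhibitor of receptor tyrosine kinase signals, read 10.12, 10.29 and 10.16 in untreated myoblasts, 9.59, 9.69 and 9.51 in treated myoblasts, 10.23, 10.34 and 10.13 in untreated myotubes and 10.83, 10.78 and 10.88 in treated myotubes. Its untreated arrays also overlapped between stages, and it fell and rose by the same 1.51-fold.

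Other genes that rose in myotubes and fell in myoblasts included Ankrd1, Pdlim3, Alpk2 and Sema3a. Ankrd1, an ankyrin-repeat protein induced by stretch, read 11.53, 11.52 and 11.36 in untreated myoblasts, 10.92, 11.12 and 10.74 in treated myoblasts, 11.22, 11.20 and 11.08 in untreated myotubes and 12.04, 12.06 and 12.04 in treated myotubes, with treated myotubes highest and treated myoblasts mostly lowest, at a stage difference of 1.43 (SE 0.11, adjusted p = 6.81e-09). Pdlim3, a LIM protein of the Z-disc, fell by 0.72 and rose by 0.57, a stage difference of 1.29 (SE 0.10, adjusted p = 9.55e-09). Alpk2, an alpha-kinase, fell by 0.54 and rose by 1.58, a stage difference of 2.12 (SE 0.14, adjusted p = 1.02e-09). Sema3a, a repellent guidance cue for axons, fell by 0.50 and rose by 0.78, a stage difference of 1.28 (SE 0.10, adjusted p = 1.42e-08). In the reverse direction, Nkd2, an inhibitor of Wnt signalling, read 7.61, 7.47 and 7.57 in untreated myoblasts, 8.82, 8.54 and 8.85 in treated myoblasts, 8.74, 8.78 and 8.69 in untreated myotubes and 8.34, 8.23 and 8.41 in treated myotubes. Treated myoblasts reached the level of untreated myotubes, and Nkd2 rose by 1.19 in myoblasts and fell by 0.41 in myotubes, a stage difference of -1.60 (SE 0.14, adjusted p = 4.59e-08). Cpne2, a calcium-dependent phospholipid-binding protein, rose by 0.53 and fell by 0.70, a stage difference of -1.22 (SE 0.11, adjusted p = 8.35e-08). Tnfaip8 rose by 0.45 and fell by 0.86; a second, dimmer row of this gene had a stage difference of -0.21 (adjusted p = 0.6). Among the lists, 3 of 44 axon guidance genes were in the set of 104, against 0.522% of all genes. The set held 2 of 34 glycolysis, 2 of 38 immediate early, 2 of 38 chemokine, 2 of 26 SRF and YAP, 2 of 25 CDK inhibitor and p53, and 2 of 29 muscle atrophy genes, other lists held 1 or 0, and 21 of the 104 genes belonged to any list.

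**Figure D4:**
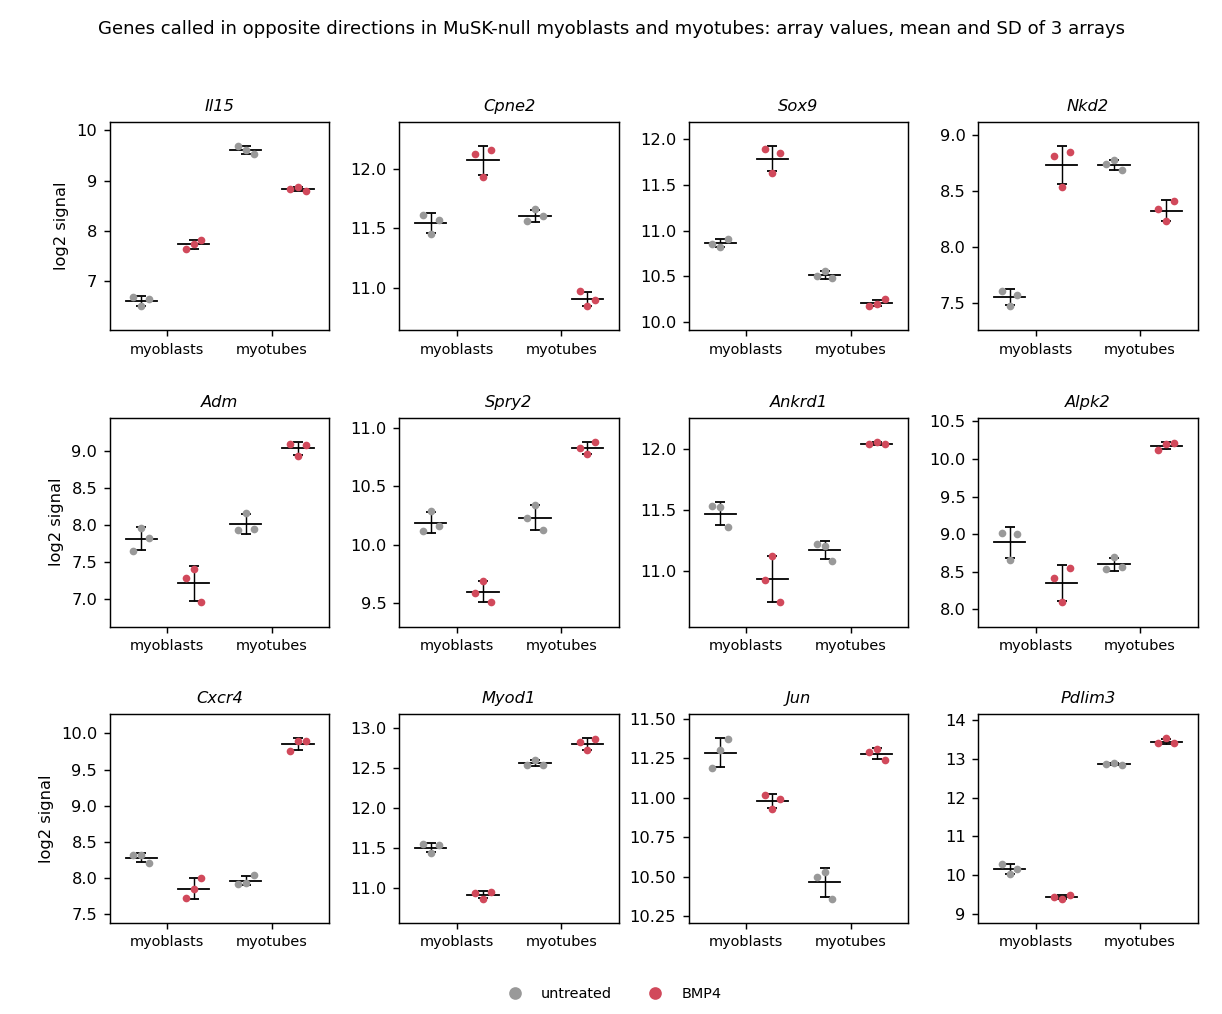
Log2 signal of 12 genes called in opposite directions on each MuSK-null array (points), with the mean (line) and SD (bar) of 3 arrays, untreated in grey and BMP4 in red. The upper row (Il15, Cpne2, Sox9, Nkd2) rises in myoblasts and falls in myotubes, and the other rows do the reverse; in Il15 the treated arms of the stages lie closer together than the untreated arms.

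The same contrast was fitted for the wild-type line, whose arrays share the estimate of error with the null arrays but do not enter the null stage difference itself. There a stage difference was called for 682 genes (3.42%), 382 higher (1.92%) and 300 lower (1.5%) in myotubes. Of the 1228 genes called in MuSK-null cells, 866 (70.5%) had the same sign in wild type, against 50.4% of all genes. Called in both lines with the same sign were 268 genes, which is 21.8% of the null calls and 39.3% of the wild-type calls, and 35 were called with opposite signs. The 645 higher genes had a median of 0.563 in null and 0.194 in wild-type cells, and the 583 lower genes of -0.555 and -0.09. These genes were chosen by their null values, so a larger null median follows from the choice. The difference between the lines was tested as the three-way difference (null stage difference minus wild-type stage difference), which was called for 498 genes (2.5%; 1.18% higher and 1.31% lower) and for 339 (27.6%) of the 1228, whose null arrays both tests use.

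Some stage differences had close values in both lines. Foxq1 was at -1.77 in null and -1.74 (SE 0.12, adjusted p = 6.33e-09) in wild-type cells, with a three-way difference of -0.03 (adjusted p = 0.971). Spry2 was at 1.18 and 1.00, although in wild type it rose by 0.23 in myoblasts and by 1.23 in myotubes, and the three-way difference was 0.19 (SE 0.14, adjusted p = 0.669). Cdh15 was at 0.85 and 0.65, with a three-way difference of 0.19 (adjusted p = 0.593). A p that misses the threshold does not show that the lines were alike.

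The stage differences of Id1, Id2 and Id3 differed between the lines. In wild-type arrays Id3 read 9.37, 9.40 and 9.20 in untreated myoblasts, 11.58, 11.67 and 11.75 in treated myoblasts, 9.19, 8.84 and 9.24 in untreated myotubes and 11.06, 10.94 and 10.92 in treated myotubes. Its untreated level overlapped between the wild-type stages, which it did not in null cells, and the wild-type stage difference was -0.46 (SE 0.13, adjusted p = 0.0483). The three-way difference was 2.58 (SE 0.18, adjusted p = 1.61e-08). For Id2 the stage differences were 1.92 in null and -0.70 in wild-type cells, a three-way difference of 2.61 (adjusted p = 2.18e-09). For Id1 they were 1.20 and -0.39, a three-way difference of 1.59 (adjusted p = 8.85e-07). Over the 30 BMP targets the wild-type stage difference was higher for 1 and lower for 12, against 1.92% and 1.5% of all genes. The three-way difference was higher for 9 and lower for 0, against 1.18% and 1.31%.

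For the lists, the calls in each line are given without a test of the difference between lists. Over all genes 1.92% were higher and 1.5% lower in the wild-type stage difference, and 1.18% and 1.31% in the three-way difference. Of the 34 glycolysis and hypoxia genes 3 were higher and 3 lower in the wild-type stage difference, and in the three-way difference 9 were higher and 1 lower. Of the 37 myogenic genes 8 were higher and 0 lower in wild type, and the three-way difference was higher for 2 and lower for 3. Il15 had wild-type responses of 0.10 and -0.03 and a three-way difference of -1.77 (SE 0.21, adjusted p = 1.99e-05). Frmd4b, which fell in wild-type myoblasts by 0.88 and in wild-type myotubes by 0.33, had a three-way difference of -1.95 (adjusted p = 1.61e-08). Of the 104 genes with opposite responses in null cells, 87 (83.7%) had a stage difference of the same sign in wild type, against 50.4% of all genes. In wild type 39 were called the same way and 2 the other way, where 3.42% of all genes were called in either direction. The three-way difference was called for 61, against 2.5% of all genes. It uses the null values by which these genes were chosen. A high count there follows in part from that choice. Opposite responses by the same rule were found for 33 genes in wild type, of which 7 were among the 104.

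**Figure D5:**
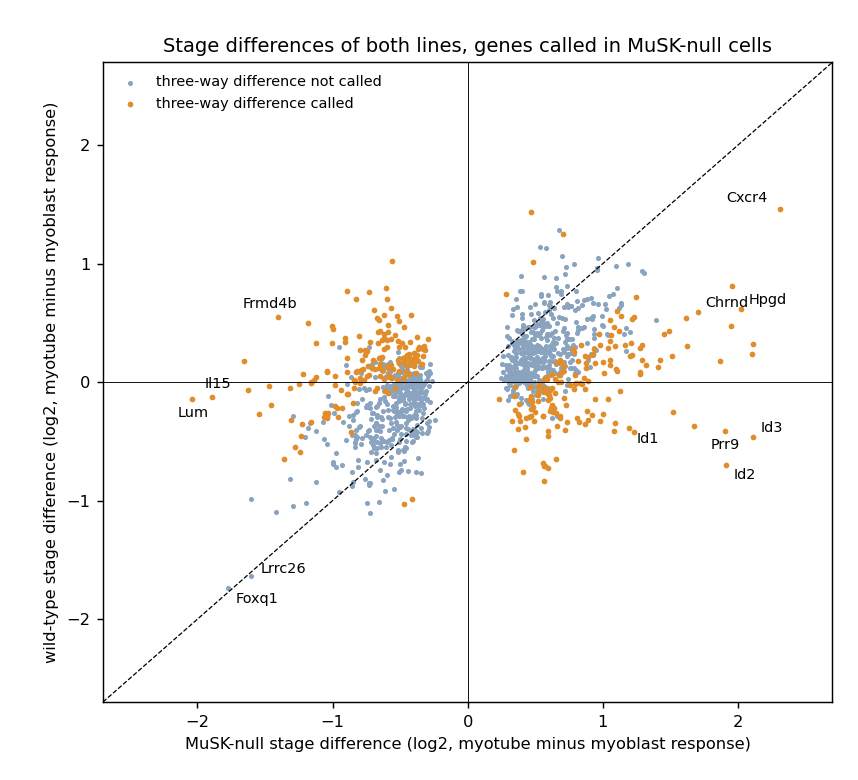
Stage difference in MuSK-null cells (horizontal axis, log2) against that in wild-type cells (vertical axis, log2) for the 1228 genes called in MuSK-null cells, with the dashed line marking equal values; orange points are the 339 genes also called in the three-way difference. Foxq1 lies near the line at -1.77 and -1.74, and Id2 lies far below it at 1.92 and -0.70.

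Further lists are given beside the shares over all genes, 3.24% higher and 2.92% lower. Of 37 interferon-stimulated genes, measured because myoblast medium held interferon-γ, 0 had a higher and 2 a lower response in myotubes, with a median of -0.091; they were Oas2 at -0.37 (SE 0.10, adjusted p = 0.0337) and Oasl2 at -0.43 (SE 0.12, adjusted p = 0.0374), antiviral genes whose calls were lost when any 1 of 7 and any 1 of 6 of the 12 arrays was left out (adjusted p up to 0.102 and 0.128), and Oas2 also with the replicate number as a block (adjusted p = 0.106). Both calls were lost too under median centring (adjusted p = 0.0794 and 0.0607), with the 12 null arrays alone (0.0791 and 0.0862) and without the 4 arrays that deviate together (0.0947 and 0.0629), and that of Oas2 under quantile normalization (0.0692) and trend and robust moderation (0.0575). Of 48 cell cycle and replication genes 5 (10.4%) were higher and 1 (2.08%) was lower, with a median of 0.032, and Rrm2, a ribonucleotide reductase subunit, was at 0.76 (SE 0.12, adjusted p = 0.000148). Of 29 cholesterol and fatty acid synthesis genes 1 (3.45%) was higher and 1 (3.45%) lower. Of 35 calcium handling genes 2 (5.71%) were higher and 1 (2.86%) was lower. Of 34 Hox genes 0 were higher and 1, Hoxa9, was lower at -0.60 (SE 0.09, adjusted p = 0.000147), while 8 of them rose in null myoblasts and 3 in null myotubes, against 3.89% and 5.36% of all genes. Rgs4 and Ptgs2, a regulator of G-protein signals and a prostaglandin synthase, had stage differences of -0.14 (SE 0.13, adjusted p = 0.695) and 0.04 (SE 0.12, adjusted p = 0.929).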

How the data were processed

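Total RNA (integrity number above 9, per the labels' protocols) from 24 samples was hybridised to Affymetrix whole-transcript gene arrays. The authors deposited log2 values, 1 per row and array, as read from the values (2.502 to 15.033, array medians 7.381 to 7.497). Per the submitters' processing notes, the software was Affymetrix Expression Console and Partek, with no version or role; how the values were summarised and normalized is not stated in the sources used here. Of 35556 rows the platform annotation gives 1 gene for 21789, several for 1621 and none for 12146. One-gene rows were tested, with the row of highest mean kept for each of 999 genes with more than 1, which left 19938 genes; 21698 of the one-gene rows were found in RefSeq (GRCm38.p6) and 0 symbols changed. Arrays give no counts; the number of arrays limits precision.

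limma 3.58.1 in R 4.3.3 fitted 1 mean per group to all 24 arrays (16 residual degrees of freedom), and every adjusted p is limma's with Benjamini-Hochberg adjustment over the 19938 genes. On 1 seeded set of simulated arrays with 200 changed genes among 19938 the stage difference was recovered for 37.3% at 0.5 log2 units, 92.5% at 1 and 100% at 2, with 14 false calls; another seed, used earlier, recovered more at the smallest size, so that value moves with the draw. Named genes were the 15 largest called differences in each direction with a MuSK-null group mean of at least 6, the 10 largest opposite responders in each direction, from each list at most 4 called genes a direction, and always Id1, Id2, Id3, Id4, Smad6, Smad7, Musk, Bmp4, Fabp7, Sp7, Msx2, Rgs4, Ptgs2, Myog, Chrnd and Chrng. Dlx1, Myh3, the microRNA genes other than Mir206, and the genes at the edge of the opposite rule fall outside that rule and were chosen after their values were seen. The members and the 34 gene lists (968 of 1030 genes measured) were chosen with earlier results of these data known. Lists were described by counts and medians, without a test. Promoter sequences matched 15614 genes. Deviations of treated and untreated arrays with the same replicate number correlated at 0.203, 0.46 and 0.116 in null myoblasts. In null myotubes the values were -0.031, -0.111 and -0.276. Among null cells only replicate 2 of the myoblasts had its own number as best partner, and both its arrays are among the 4 that deviate together. Replicate numbers thus did not pair the arms in general, and the fit has no block. Alternatives were the 12 null arrays alone, trend and robust moderation, dim genes left out, quantile normalization, median centring, each row tested, the mean of a gene's rows, a replicate block, a 1.5-fold minimum, each array left out, and the 4 arrays that deviate together, known from earlier results, as a block or left out.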

Additional observations from a re-analysis of the deposited data

Results flagged for a closer look

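The stage difference itself differed between the MuSK-null and wild-type lines for 339 of the 1228 genes called in null cells, by limma's three-way contrast with Benjamini-Hochberg adjustment over all genes. That was 27.6% of them, against 2.5% of all genes, and both contrasts use the same null arrays. The genes that follow are examples picked from the named ones, and others such as Mir206 and Has2 were also called. Among these examples the three-way difference was positive for Id1 at 1.59, Id2 at 2.61, Id3 at 2.58, Chrnd at 1.12, Hpgd at 1.41, Alpk2 at 1.80, Ankrd1 at 1.24, Adm at 1.32, Prr9 at 2.32 and Mettl21c at 1.86. It was negative for Il15 at -1.77, Frmd4b at -1.95, Flvcr2 at -1.84 and Lum at -1.90. Lum lay between 4.19 and 4.75 on every wild-type array, against 8.17 to 8.30 in untreated null myotubes. That low signal leaves little room for a fall in wild-type cells. Each genotype is 1 line, so genotype and line cannot be told apart.

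Rows left out of the gene tests also held stage differences when tested on their own. Of 12146 rows without a gene name 24 (0.198%) were called, and of 1621 rows with several gene names 9 (0.555%).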

How the results depend on the processing

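Of 197 named genes 191 were called in the stage difference, and 157 of these kept the call under every alternative applied gene by gene. The 1.5-fold minimum was applied to the counts alone and did not enter the 157. Of the named genes 0 reversed. The count of stage differences (1228) ran from 1004 to 1214 with 1 array left out, that of opposite responses (104) from 82 to 109, of myoblast responses (1678) from 1332 to 1699, of myotube responses (2245) from 1759 to 2342, of wild-type stage differences (682) from 536 to 640 and of three-way differences (498) from 389 to 501. The 12 null arrays alone gave 985 stage differences and 81 opposite responses. A replicate block gave 1054 stage differences, 988 of them among the 1228, and 85 opposite responses. At least 1.5-fold left 565 stage differences, 426 myoblast responses, 559 myotube responses, 284 wild-type stage differences and 3 opposite responses; a higher minimum leaves fewer genes. The 4 arrays that deviate together, as a block, gave 1694 stage differences, 166 opposite responses, 1028 wild-type stage differences and 783 three-way differences. Trend and robust moderation gave 1333 stage differences and leaving dim genes out gave 1329, so the count also rose above 1228. Scaling moved the median stage difference from -0.023 to -0.01 (quantile) and 0.02 (median centring). Signal near the dimmest rows limits Lum in null myoblasts and in both stages of the wild-type line, and Mir302d in every null group. In all, 29 called genes had no null group mean of 6.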

Other observations

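Notch and growth factor genes were split in both directions, where 3.24% of all genes were higher and 2.92% lower. Of 25 Notch genes 4 were higher and 3 lower in the stage difference: Dll1, a Notch ligand, fell by 0.96 in null myoblasts and rose by 0.29 in null myotubes, a difference of 1.25 (SE 0.09, adjusted p = 2.95e-09), and Notch3, a receptor, fell by 0.96 with a myotube response of -0.03. The ligand Jag1 went the other way, with rises of 0.86 and 0.46 and a difference of -0.40. Of 44 genes of insulin-like, fibroblast and other growth factors 6 were higher and 5 lower. Pdgfc, a platelet-derived growth factor, fell by 0.50 and rose by 0.48, while Pdgfb, of the same family, fell by 0.31 and by 1.16, a difference of -0.85. Hgf, the ligand of Met, rose by 0.35 and 1.24.

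Guidance and cytokine genes were likewise mixed, with the same shares over all genes beside them. Of 44 axon guidance genes 4 were higher and 7 lower; the lower ones included Sema7a at -1.22, Nrp2, a semaphorin receptor, at -0.82 and Plxnc1, the receptor of Sema7a, at -0.80. Of 38 chemokine and cytokine genes 7 were higher and 4 lower. Il6, an inflammatory cytokine, was at 0.92 and Csf1, the macrophage growth factor, at 0.68. Ackr3, the second receptor of Cxcl12 beside Cxcr4, rose by 0.78 in null myoblasts and had a myotube response of -0.26, a difference of -1.04, whereas Cxcr4 was at 2.31. Has2, which makes hyaluronan, had responses of -0.13 and 0.95 in null cells and rose by 0.88 and 0.47 in wild-type cells, and its three-way difference was called (adjusted p = 1.79e-06).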
